A study of Mus musculus with 11 samples.

Results

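The 81 genes for ribosomal proteins of the cytoplasmic ribosome were followed through single nuclei of mouse brain. They were chosen by name alone from the 25938 gene symbols of the deposited matrix: symbols of the form Rpl or Rps with a number, and the stalk genes Rplp0, Rplp1 and Rplp2. The rule took 43 large subunit genes, 30 small subunit genes, 3 stalk genes and 5 genes named as paralogs (Rpl3l, Rpl7l1, Rpl22l1, Rpl39l and Rps27l). It left out 17 other names starting with Rpl or Rps, among them 10 S6 kinase names and 3 pseudogene names, and it does not reach Fau or Rpsa, which also encode ribosomal proteins. The 81 genes held 2171279 of 408693612 unique molecular identifiers (UMIs, counted RNA molecules), or 0.531%.

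Ribosomal proteins are made in the cytoplasm, carried into the nucleolus, joined there with ribosomal RNA into the large and small subunits, and exported. Their mRNAs are among the most abundant and long-lived of the cytoplasm, while inside the nucleus they are short, quickly spliced transcripts. Many of them begin with a C followed by a run of pyrimidines, the 5' terminal oligopyrimidine (TOP) element, through which growth signalling sets their translation. In nuclei prepared from frozen tissue, such mRNAs are therefore read as a gauge of RNA from outside the nucleus, either held by cytoplasm left on a nucleus or free in the suspension.

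The study compared ways of bringing an antisense oligonucleotide (ASO) against the nuclear RNA Malat1 into the brain after intravenous dosing. In the labels, all mice carried a knock-in of the human transferrin receptor (TfR) in both copies, received 4 doses, which the series description calls weekly, and were harvested 72 hours after the last. The control group, ATV:BACE1 (n = 3, 57 mg/kg), received a TfR-binding molecule with no ASO. The nonTV:Malat1 group (n = 3, 60 mg/kg, titled RSV-ASO) and the OTV:Malat1 group (n = 3, 60 mg/kg) received the ASO on a carrier, which binds TfR in OTV:Malat1 only, and the Malat1 ASO group (n = 2, 2.5 mg/kg) received the ASO alone. Replicate 4 of the last group was not analysed here. Replicate 1 of each group was a female of 2.33 months, replicate 4 a male of 2.57 months and replicate 5 a male of 2.33 months, and these numbers coincide with the deposited batches 1, 3 and 4, so replicate number and batch cannot be told apart. Sex sets replicate 1 apart from the others, and age replicate 4. For the control, the sample labels give 57 mg/kg, whereas the wording of the series text may place it at 60 as well, and the labels were followed. The labels call the region posterior and the deposited metadata call it cortex, and the metadata give a C57BL/6J strain without naming the knock-in. None of these differences could be settled.

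The 11 libraries held 7546 to 13840 nuclei each, 110304 in all, with 33235994 to 43972886 UMIs per library and a median of 2205 to 3666 UMIs per nucleus. Ribosomal protein genes gave 13.2 to 25.5 UMIs per nucleus in the library means. Of 108788 distinct cell barcodes, 1495 (1.37%) occurred in at least 2 libraries. Each nucleus carries a class name predicted by the authors. Each list of class markers stood highest in the class of that name, but some classes also held markers of others. Nuclei named Pericytes held 1.07% of their UMIs on 5 endothelial markers and 0.527% on 5 pericyte markers, against 1.32% and 0.126% in nuclei named Vascular endothelium, and nuclei named Glia held 0.690% on choroid plexus markers. Leptomeningeal cells held 0.131% on astrocyte markers and 0.0919% on their own. Vascular smooth muscle held 0.419% on pericyte markers, 0.123% on endothelial markers and 0.0984% on smooth muscle markers. These names are used below as names only.

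Start-site sequence was available for 61 of the 81 genes in the RefSeq table of build GRCm38.p6. The stretches below run from 15 bases before the annotated start to 15 bases from it, on the strand of the gene, with the longest unbroken run of C and T in capitals. They show an abundant large subunit gene (Rpl27a), a stalk gene (Rplp2), the large subunit gene with the largest vascular rise (Rpl18), a small subunit gene that took a smaller part of the ribosomal protein UMIs outside Neurons (Rps27), and the paralogs Rpl22l1 and Rpl7l1, which among the members tested by class followed the other members least closely.
Rpl27a, large subunit, chr7:109519180-109519209, plus strand: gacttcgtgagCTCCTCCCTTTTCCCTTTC
Rplp2, stalk, chr7:141447636-141447665, plus strand: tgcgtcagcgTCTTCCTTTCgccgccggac
Rpl18, large subunit, chr7:45718056-45718085, plus strand: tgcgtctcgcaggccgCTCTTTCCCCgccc
Rps27, small subunit, chr3:90213634-90213663, minus strand: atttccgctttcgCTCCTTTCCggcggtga
Rpl22l1, paralog, chr3:28805493-28805522, plus strand: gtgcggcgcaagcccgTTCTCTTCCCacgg
Rpl7l1, paralog, chr17:46782642-46782671, minus strand: gtgaggCTgcgcaagcgcagtagctgaagc
The run was at least 19 bases long in Rpl27a, where it reached the end of the stretch. It was 10 in Rplp2, Rpl18 and Rpl22l1, and 9 in Rps27, while Rpl7l1 had no run above 2 in this stretch. Short runs were not limited to the paralogs: the same stretch held no run above 6 bases in Rpl6. In Rps12 the longest run in the stretch had 7 bases but reached its end, so its full length is not shown. Within 50 bases on either side of the start, a run of at least 8 bases of C or T was sought on the strand of the gene. It was present in 52 of the 61 ribosomal protein genes (85.2%) and in 38.3% of the 17302 matrix genes with a listed start. On the opposite strand the shares were 24.6% and 41.0%. A C at the annotated start followed by at least 4 pyrimidines was found in 13 of 61 (21.3%), against 3.09% of all. A match describes these letters only.

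The members were close to each other in abundance. Among the 10 members with the most UMIs were Rpl13 (59303; chr8:123102350-123105244), Rplp1 (49257; chr9:61913284-61914542), Rpl6 (48010), Rpl27a (47083), Rpl41 (43384), Rps29 (42806), Rpl19 (42729), Rps24 (41542) and Rpl21 (39440). The 10 together held 21.6% of all ribosomal protein UMIs, and among the 76 members that are not paralogs the highest count was 6.40 times the lowest. Only 8 members exceeded 100 CPM (UMIs of a gene for each 1000000 UMIs of a library) over all nuclei. The genes lie on 19 chromosomes in the GENCODE M21 annotation, 14 of them on chromosome 7 and 4 on X. Their UMI counts followed neither gene span (Spearman rho -0.13 across the 81 genes) nor exon length (rho 0.00823), values that describe genes and not replicates. Reads from a ribosomal protein gene and from its many processed copies elsewhere in the genome cannot be told apart here, and the sources used here do not say whether intronic reads were counted.

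The ribosomal protein share was compared first by class. Nuclei named Neurons held the smallest ribosomal protein share, 0.410% ± 0.0868 (SD, n = 11 libraries), with a lowest library of 0.293%, a median of 0.407% and a highest of 0.576%. Nuclei named Vascular endothelium held the largest, 3.29% ± 0.343 (n = 11), from 2.78% through a median of 3.30% to 3.79%. The lowest endothelial library stood above the highest neuronal one, and the ratio within a library ran from 5.95 to 10.9. Pericytes stood next below endothelium, at 2.88% ± 0.262 (n = 11), with 2.53% as the lowest, 2.87% as the median and 3.30% as the highest library, and below endothelium in all 11 libraries although the ranges overlap.

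The glial and immune classes lay between. Glia reached 0.834% ± 0.119, Astrocytes 1.17% ± 0.230, Oligodendrocytes 1.33% ± 0.266, Leptomeningeal cells 1.42% ± 0.258 and Microglia 1.47% ± 0.324 (SD, n = 11 libraries each). Vascular smooth muscle had 2.05% ± 0.372 over the 8 libraries with at least 20 nuclei, and Perivascular macrophages 1.64% in the only such library. Every class exceeded Neurons in every library in which both had a value. Neighbours in this order were ranked alike in all shared libraries except for Oligodendrocytes and Leptomeningeal cells (the latter higher in 7 of 11) and for Leptomeningeal cells and Microglia (the latter higher in 6 of 11), which did not differ beyond their spread.

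**Figure D1:**
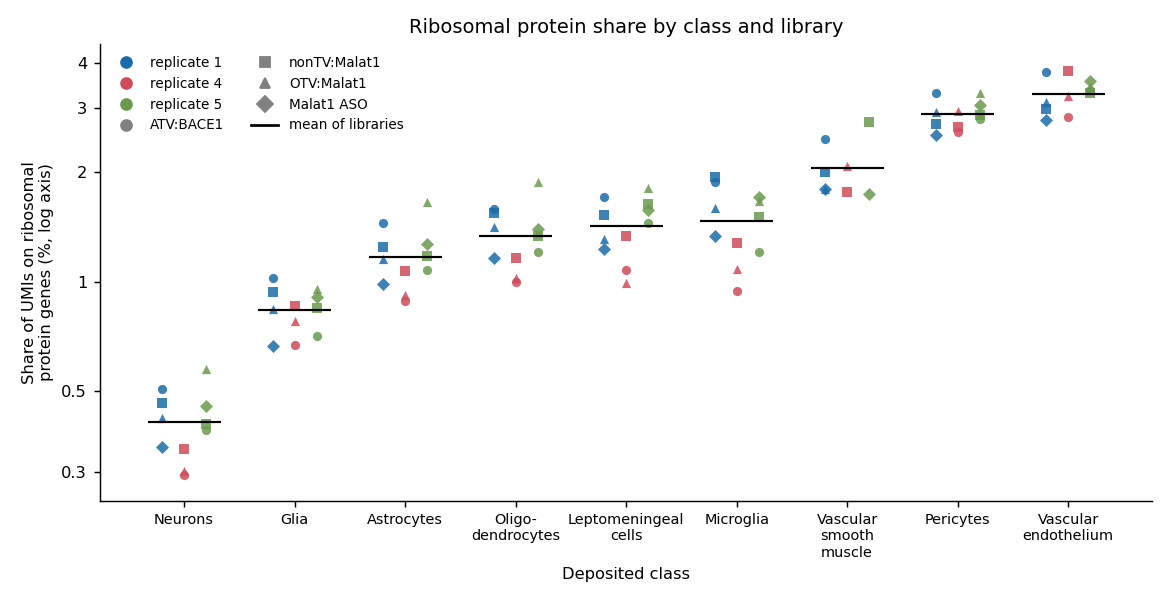
Share of all UMIs on the 81 ribosomal protein genes (percent, log axis) in each deposited class; each point is 1 library with at least 20 nuclei of the class, coloured by replicate number and shaped by dosing group, and bars are means over libraries. Neurons sit lowest at 0.410%, endothelium highest at 3.29%, and replicate 4 libraries lie low within most classes.

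Counted per nucleus rather than as a share, the order was different. A nucleus named Neurons held a median of 18 ribosomal protein UMIs, against 17 for Astrocytes, 15 for Oligodendrocytes, 15 for Microglia, 19 for Leptomeningeal cells and 25 for Glia. The library means per nucleus were below those of Neurons in 11 of 11 libraries for Oligodendrocytes and Microglia and in 9 of 11 for Astrocytes. Pericytes, with a median of 52, and endothelium, with 30, held more than Neurons per nucleus in 11 of 11 libraries. Only 6 neuronal and 1 oligodendrocyte nucleus of 110304 had no ribosomal protein UMI. The median depth moved with the class: 3926 UMIs per nucleus in Neurons, 947 in Oligodendrocytes, 883 in Microglia, 960.5 in endothelium and 1930.5 in Pericytes. No class lacks ribosomes, so none can serve as a blank for free RNA.

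Within a class, ribosomal protein UMIs rose with the depth of the nucleus, but by a much smaller factor than the depth except in Pericytes and endothelium. From neuronal nuclei of up to 750 UMIs to those above 6000, the mean depth rose 14.5-fold, from 614 to 8908 UMIs, and the ribosomal protein UMIs per nucleus 1.56-fold, from 16.2 to 25.4. Between these ends the neuronal count fell to 14.1 in nuclei above 750 and up to 1000 UMIs. Across neuronal nuclei of a library, Spearman's rho between ribosomal protein and total UMIs was 0.491 to 0.572. Its median over libraries was 0.581 in Glia, 0.429 in Leptomeningeal cells, 0.377 in Astrocytes, 0.308 in Microglia and 0.295 in Oligodendrocytes, against 0.898 in Pericytes (10 libraries) and 0.771 in endothelium, values that describe nuclei and not replicates. In Oligodendrocytes 12.6 times the depth went with 2.16 times the ribosomal protein UMIs (13.2 to 28.6), and in Microglia 3.87 times the depth with 1.27 times (13.9 to 17.7). Nuclei of all the classes plotted except endothelium thus began at similar counts, between 13.2 and 16.4 in the shallowest bin.

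Pericytes and endothelium behaved differently. In Pericytes a 12.3-fold increase of depth went with a 12.5-fold increase of ribosomal protein UMIs, from 16.4 to 204 per nucleus. In endothelium a 5.52-fold increase of depth went with 5.16-fold more, from 21.5 to 111. In both, the share was thus close to constant over depth, between 2.61% and 3.01% in the depth bins of Pericytes. Astrocytes stood between the patterns, with 12.3 times the depth and 3.60 times the ribosomal protein UMIs (13.8 to 49.6), as did Glia (9.09 times the depth, 16.0 to 47.9 ribosomal protein UMIs) and Leptomeningeal cells (7.29 times, 14.2 to 38.2). Vascular smooth muscle, whose bins spanned only 1.86 times the depth, had 1.28 times the ribosomal protein UMIs.

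**Figure D2:**
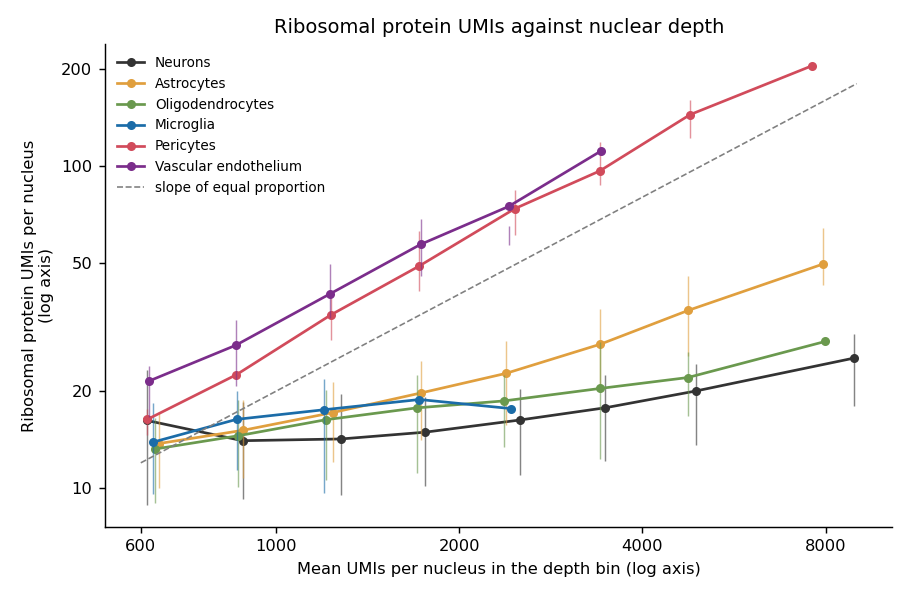
Mean ribosomal protein UMIs per nucleus against mean total UMIs per nucleus in depth bins (both log axes) for 6 classes; points pool all nuclei of a bin, vertical lines span the libraries with at least 10 nuclei in the bin, and the dashed line shows the slope of equal proportion. Pericytes and endothelium run parallel to the dashed line, while Neurons stay between 14.1 and 25.4.

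Class differences were therefore also measured at a fixed depth. After each nucleus was thinned to 1000 UMIs, Neurons kept 5.00 ± 1.04 ribosomal protein UMIs (SD over 11 libraries), Glia 9.75, Astrocytes 11.7, Oligodendrocytes 11.4, Microglia 11.7 (10 libraries), Leptomeningeal cells 13.7, Pericytes 28.7 and endothelium 32.5. Thinning left out the nuclei below 1000 UMIs, which were 3.03% of Neurons, 55.0% of Oligodendrocytes, 61.8% of Microglia, 20.2% of Pericytes and 52.5% of endothelium. Thinning equalises the counts but leaves nuclei that were deep before it. In nuclei that had 1000 to 2000 UMIs to begin with, the neuronal share was 0.940% ± 0.175, against 1.21% ± 0.222 in Oligodendrocytes, 1.25% ± 0.215 in Astrocytes, 1.28% ± 0.351 in Microglia (5 libraries), 1.33% ± 0.214 in Glia and 1.46% ± 0.229 in Leptomeningeal cells. The range over libraries of each of these 5 classes overlapped the neuronal range in that window. Pericytes at 2.87% ± 0.340 (7 libraries) and endothelium at 3.33% ± 0.414 (10 libraries) remained above every neuronal library, the highest of which had 1.22%. The window held 12.4% of the neuronal nuclei.

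Single genes were then tested within libraries. For each class against Neurons, counts summed by library and class were compared with edgeR's quasi-likelihood test, with the library as a block and Benjamini-Hochberg adjustment over 14283 genes. Of the 79 members that passed the filter on low counts, 79 were higher in endothelium, where 27.9% of all genes tested were called higher, and 79 in Pericytes (background 32%). The corresponding numbers were 79 in Oligodendrocytes (36.4%), 79 in Microglia (26.2%), 78 in Astrocytes (38.6%), 78 in Leptomeningeal cells (29%) and 76 in Glia (31.8%), and none was lower. The median log2 change of the members was 2.34 in endothelium, 2.25 in Pericytes, 1.45 in Oligodendrocytes, 1.27 in Leptomeningeal cells, 1.25 in both Astrocytes and Microglia, and 0.68 in Glia. The median over all genes was between -0.34 (endothelium) and -0.03 (Astrocytes). The classes had been predicted by the authors from the same transcriptomes, so these contrasts describe the named classes.

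The scaling touches these sizes. With total counts in place of trimmed mean of M-values (TMM) factors, the median over all genes moved to between 0.22 and 0.45, and the member medians to between 1.06 (Glia) and 2.93 (endothelium), with all 79 members higher in each of the 7 classes. The split of all called genes moved with it, for example from 3980 higher and 5842 lower to 5680 and 3612 in endothelium, and from 3745 and 4920 to 6240 and 2833 in Microglia. Gene values in CPM below are on total counts and the fitted log2 changes on the TMM scale.

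Among large subunit genes, Rpl18 rose most in both vascular classes. It averaged 39.0 CPM in Neurons, 522 CPM in endothelium (log2 change 3.14 ± 0.09, standard error) and 536 CPM in Pericytes (3.28 ± 0.07). Rpl13 went from 106 to 1378 CPM in endothelium (3.09 ± 0.07), and Rpl7 and Rpl8 rose by 3.12 and 2.99 there. The largest adjusted p among these endothelial changes, by edgeR's quasi-likelihood test with Benjamini-Hochberg adjustment, was 9.2e-61. Of the small subunit, no member was among the 5 largest changes in endothelium. In Oligodendrocytes, Rps25 (1.62), Rps19 (1.62) and Rps3 (1.62), a protein at the mRNA entry channel, were among the leading 5, and Rps3 also led in Astrocytes at 1.53. In Microglia, Rpl36a (1.66), Rpl18 (1.62), Rpl7a (1.57) and Rps7 (1.56) were among the leading 5.

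The stalk genes encode the flexible arm of the large subunit that recruits elongation factors, with Rplp0 as its base and Rplp1 and Rplp2 as its arms. Rplp0 rose from 19.7 CPM in Neurons to 235 CPM in endothelium (2.94 ± 0.12) and 251 CPM in Pericytes (3.17 ± 0.10), and led the members in Leptomeningeal cells (1.71) and Glia (1.26). Rplp1 led in Oligodendrocytes, at 347 against 87.2 CPM (1.70 ± 0.06), and reached 1.60 in Microglia. Rplp2 rose by 1.47 in Oligodendrocytes and 2.42 in endothelium. The stalk genes together made up 3.64% of the ribosomal protein UMIs in Neurons and 4.03% to 4.48% in the 7 classes tested against them.

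Of the 5 paralogs, 3 could be set beside their parent genes by class. Rpl7l1, named for its likeness to Rpl7, averaged 21.3 CPM in Neurons, 28.7 CPM in Astrocytes and 47.9 CPM in endothelium. Its log2 change was 0.12 ± 0.07 in Astrocytes (adjusted p 0.11 by edgeR's quasi-likelihood test with Benjamini-Hochberg adjustment), 0.13 ± 0.15 in Leptomeningeal cells (0.48) and 0.57 ± 0.19 in endothelium (0.0056), where Rpl7 rose by 3.12. Rpl7l1 UMIs thus equalled 67.5% of those of Rpl7 in Neurons, 14.5% in Pericytes and 11.6% in endothelium. Rpl22l1, the paralog of Rpl22, amounted to 158% of Rpl22 in Neurons, 84.5% in endothelium and 60.2% in Pericytes, with log2 changes of 1.16 and 0.69 in these classes against 2.05 and 2.06 for Rpl22. Elsewhere Rpl22l1 and Rpl22 had similar changes, of 0.78 and 0.78 in Astrocytes, 1.09 and 0.97 in Oligodendrocytes and 0.99 and 0.79 in Microglia. Rps27l, known as a p53 target, went the other way: it was 9.32% of Rps27 in Neurons, 20.4% in endothelium and 26.7% in Pericytes, and rose by 3.01 ± 0.16 in Pericytes. Rpl3l, the striated muscle form of Rpl3, gave 320 UMIs in all and Rpl39l 7, too few for a class value, and neither entered these class tests. The differences between a paralog and its parent were not themselves tested.

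Apart from these, the mix of members was much the same in Neurons and in most other classes. Taking each member as a share of the ribosomal protein UMIs, 72 of 79 members in Oligodendrocytes and 72 in Astrocytes were within 1.25-fold of their neuronal share. The number was 67 in Glia, 66 in Microglia, 65 in Leptomeningeal cells, 52 in endothelium and 44 in Pericytes. Across the 79 members, log2 shares correlated with those of Neurons at Pearson's r 0.949 in Oligodendrocytes, 0.845 in endothelium and 0.794 in Pericytes, a description over genes that share libraries and free RNA. In the 7 classes tested, the lowest ratio to the neuronal share was that of Rpl7l1 (0.428 in Oligodendrocytes, 0.290 in endothelium) or of Rpl22l1 (0.328 in Pericytes), with Rps27 lowest in Glia (0.606) and Microglia (0.600). In the few nuclei named Perivascular macrophages, outside those 7, the lowest was that of Rpl22 (0.216). Rpl18 had the highest ratio in Pericytes (2.01) and endothelium (1.72). Small subunit genes gave 0.709 times the UMIs of large subunit genes in Neurons, 0.684 in endothelium and 0.670 in Pericytes, and 0.724 to 0.748 in the other 5 classes tested, the highest in Glia.

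**Figure D3:**
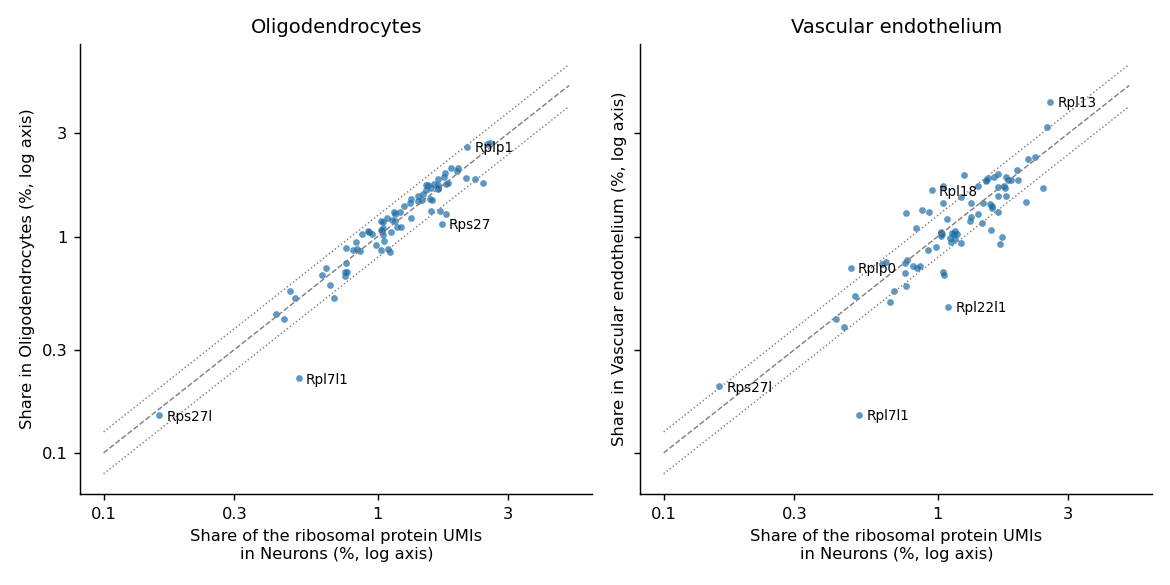
Share of each of 79 members in the ribosomal protein UMIs of Neurons (x) against the share in Oligodendrocytes or in Vascular endothelium (y), in percent on log axes, with lines at equality and at 1.25-fold. 72 members lie within the lines for Oligodendrocytes and 52 for endothelium, and Rpl7l1 lies furthest below in both.

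The tests were repeated in nuclei of 1000 to 2000 UMIs, in which 78 members and 5968 genes could be tested. In this window 77 members were still higher in endothelium (29.7% of genes called higher) and 77 in Pericytes (28.3%), with medians of 1.29 and 1.26, and the exception in both was Rpl22l1 (0.22 and -0.05). Rpl18 kept log2 changes of 2.09 ± 0.12 and 2.19 ± 0.15. In Astrocytes 68 members were higher (33.9%) and in Oligodendrocytes 67 (33.8%), but with medians of 0.34 and 0.33. Leptomeningeal cells had 44 higher members (26.6%), Glia 12 higher and 1 lower (23.4% of genes higher and 30.4% lower), and Microglia 2 (18.4%), among them Rps9 (0.52). In Glia and Microglia the members were thus called higher less often than all genes. The member called lower in Glia was Rps27, at -0.53 ± 0.17 (adjusted p 0.0065 by edgeR's quasi-likelihood test with Benjamini-Hochberg adjustment). Microglia entered with 5 libraries in this window.

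**Figure D4:**
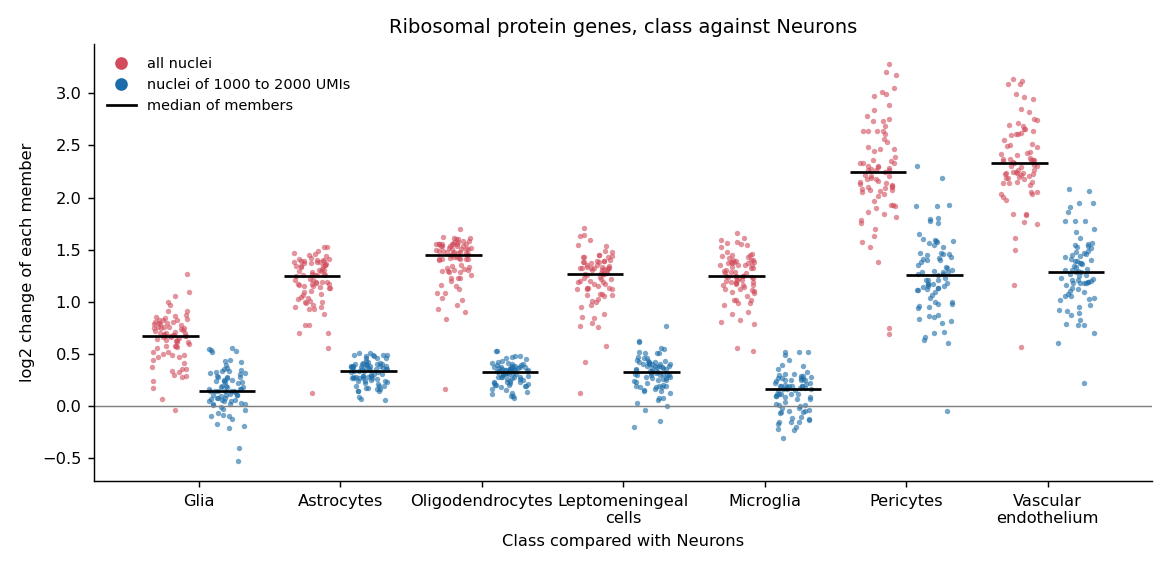
Log2 change of each ribosomal protein gene in a class against Neurons (y), over all nuclei (red) and in nuclei of 1000 to 2000 UMIs (blue); each point is 1 gene and bars are medians over the genes. Medians fell from 1.45 to 0.33 in Oligodendrocytes and from 2.34 to 1.29 in endothelium.

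A deeper window, above 2000 and up to 3000 UMIs, was added after these values were seen. There 78 of 79 members were higher in Pericytes (26.7% of 7912 genes called higher), with a median of 1.74. Astrocytes kept 57 higher members (31.5%), against 18 in Glia (27.2%), 9 in Oligodendrocytes (23.1%) and 8 in Leptomeningeal cells (14.9%). In Glia, Oligodendrocytes and Leptomeningeal cells these are smaller shares of the 79 members than the shares over all genes. The median was 0.34 in Astrocytes and 0.03 in Oligodendrocytes, and 1 member was lower in each of these 4 classes: Rps27 in Astrocytes (-0.30) and Glia (-0.49), Rpl15 in Oligodendrocytes (-0.34) and Rpl36 in Leptomeningeal cells (-1.23). The genes called lower in these classes were 38.7% in Astrocytes, 31.3% in Glia, 33.9% in Oligodendrocytes and 20.7% in Leptomeningeal cells, so members were called lower less often than all genes. Endothelium and Microglia had too few nuclei for this window.

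Other lists put these changes in context, all on nuclei of any depth. In endothelium, 23 of 24 other cytoplasmic mRNAs rose against Neurons with a median of 2.13, and in Oligodendrocytes 24 of 24 with a median of 1.46. Fth1 (ferritin heavy chain) had the most UMIs of this list. Translation factors and other TOP mRNAs, such as Eef1a1 and Tpt1, rose in 16 of 17 cases in endothelium (median 2.04) and in 15 of 17 in Oligodendrocytes (median 1.04). The 12 mitochondrially encoded mRNAs tested rose in both classes in all 12 cases, with medians of 3.05 and 1.25. Mitochondrial ribosomal proteins, which belong to another ribosome but are made in the cytoplasm as well, rose in 50 of 77 cases and fell in 7 in endothelium (median 0.86). Fau and Rpsa, outside the name rule, rose by 2.89 and 2.48 in endothelium and by 1.51 and 1.52 in Oligodendrocytes.

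Over all genes tested, 27.9% rose and 40.9% fell in endothelium on the TMM scale, a split that reversed with total counts as given above. Lists tied to the nucleus, by the site of the RNA or only by that of the encoded protein, had calls in both directions. Ribosome biogenesis genes, whose proteins but not necessarily mRNAs are found in the nucleolus, rose in 7 of 20 cases and fell in 8 in endothelium (median 0.32, against -0.34 for all genes). Their most abundant member, the nucleolar methyltransferase Fbl, fell by 0.55 there on the TMM scale. Its CPM over pooled nuclei was 48.3 in Neurons and 51.1 in endothelium. In Oligodendrocytes Fbl rose by 0.96. Ncl, which encodes the abundant nucleolar protein nucleolin, rose by 1.79 in endothelium and 0.99 in Oligodendrocytes. Host RNAs of small nucleolar RNAs, several of which are TOP genes, rose in 1 and fell in 2 of 10 cases in endothelium, with Snhg20 at -1.56. Of 11 nuclear RNAs, 2 rose and 9 fell. This list shares Meg3 and Snhg11, its most abundant members after Malat1, with the list of 9 neuronal RNAs below. Over pooled nuclei they had 7681 and 4768 CPM in Neurons and 496 and 370 CPM in endothelium. For such genes, nuclear location and neuronal expression cannot be told apart here. Malat1 fell by 1.43 in endothelium and by 0.48 in Oligodendrocytes on the TMM scale. Its CPM over pooled nuclei was 68969 in Neurons, 66032 in Oligodendrocytes and 41828 in endothelium. Malat1 is the target of the ASO, and these class fits pool all dosing groups. Any class difference in its response to dosing is part of these values and cannot be told apart here. A list of 9 neuronal RNAs took up 2.22% of UMIs in Neurons and 0.182% to 0.425% in the other classes, so these classes held 8.23% (Pericytes) to 19.2% (Glia) of the neuronal level, while their ribosomal protein share was above the neuronal one. How much of the ribosomal protein UMIs was free RNA was not tested.

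Over 97 library-by-class sums, the 5 genes outside the rule whose log2 CPM followed the summed ribosomal protein level most closely, of 10299 genes, included Tpt1 (Pearson's r 0.981), Fau (0.977), Eif1 (0.975) and Ppia (0.974). Of the members themselves, Rpl23 (0.977) followed the other members most closely. The least alike were Rpl3l (-0.37), Rpl39l (-0.27), Rpl7l1 (0.218), Rpl22l1 (0.421) and Rps12 (0.567). The sums share libraries, depth and class, so the values are descriptive.

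Between libraries, the ribosomal protein share went with the replicate number. Replicate 1 libraries had shares of 0.659% (ATV:BACE1), 0.638% (nonTV:Malat1), 0.557% (OTV:Malat1) and 0.476% (Malat1 ASO). Replicate 4 libraries had 0.371%, 0.453% and 0.413% in ATV:BACE1, nonTV:Malat1 and OTV:Malat1, and replicate 5 libraries 0.475%, 0.511%, 0.663% and 0.563% in the order of the 4 groups. The 3 replicate 4 libraries were thus the lowest of all 11, and replicates 1 and 5 overlapped. The means were 0.582% ± 0.0835 (n = 4), 0.412% ± 0.0411 (n = 3) and 0.553% ± 0.0818 (n = 4), and per nucleus 23.0 ± 2.56, 16.4 ± 2.82 and 18.5 ± 1.77 UMIs. Depth differed as well, with median UMIs per nucleus of 3120 ± 164, 3224.5 ± 415 and 2639 ± 306 in the same order. Within most classes the share fell with depth, as given above, and the part of depth in these replicate differences was not tested.

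The same was seen inside classes. Replicate 4 stood below replicate 1 in 3 of 3 dosing groups for Neurons, Glia, Astrocytes, Oligodendrocytes, Leptomeningeal cells and Microglia, in 2 of 3 for Pericytes and in 1 of 3 for endothelium. The library ATV:BACE1 replicate 4 had the lowest ribosomal protein count per nucleus in Neurons, Glia, Astrocytes, Oligodendrocytes, Leptomeningeal cells, Microglia and endothelium. Across the 11 libraries the neuronal share varied 1.97-fold and the endothelial share 1.36-fold.

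Tested gene by gene over all nuclei, with the dosing group as a term, 61 of 80 members were lower in replicate 4 than in replicate 1 and none higher, where 16.5% of 21409 genes were called lower (edgeR's quasi-likelihood test with Benjamini-Hochberg adjustment). The libraries of the 2 replicate numbers did not overlap for 54 of the 80 members, all lower in replicate 4, against 23% of all genes. The median member changed by -0.48. Rps2, a small subunit protein, had 76.5, 80.9, 58.2 and 57.4 CPM in replicate 1 (in the order of groups above) and 34.2, 40.7 and 38.3 CPM in replicate 4. All values of replicate 4 were below those of replicate 1, and the change was -0.80 ± 0.11 (adjusted p 0.00046, edgeR). Rpl9, Rplp0 and Rpl29 were also among the 5 largest changes, from -0.77 to -0.69, and Rps27 changed least, at -0.04.

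Against replicate 4, replicate 5 had 40 of 80 members higher and none lower, where 9.69% of genes were called higher, and a median of 0.36. These changes are relative to all UMIs, and replicate 5 nuclei were shallower in the mean. Counted per nucleus, the library means overlapped, at 16.7 to 20.9 ribosomal protein UMIs in replicate 5 and 13.2 to 18.2 in replicate 4. For 57 members all replicate 5 libraries lay above all replicate 4 libraries, against 24.3% of all genes. Rps29, a small zinc-binding protein of the small subunit, had 101, 124, 185 and 124 CPM in replicate 5 and 75.7, 89.7 and 86.0 CPM in replicate 4, with no overlap and a change of 0.64 ± 0.15. Rps27l (0.61), Rpl35 (0.57), Rpl38 (0.53) and Rps28 (0.49) came next. This count rested on single libraries: it was 0 without ATV:BACE1 replicate 4, 3 without OTV:Malat1 replicate 4, 4 without OTV:Malat1 replicate 5, 14 without either Malat1 ASO library, 23 without nonTV:Malat1 replicate 4 and 71 without nonTV:Malat1 replicate 5. With total counts in place of TMM factors, the all-gene median of this contrast moved from 0.01 to 0.11, the split of called genes from 2075 higher and 1818 lower to 3150 and 773, and the members called to 67. They were 66 in neurons only, 61 without doublets and 26 without nuclei under 1000 UMIs. Astrocyte markers were called lower in 2 of 5 cases (median -0.38), with summed levels of 0.0141% to 0.0193% of UMIs in replicate 5 and 0.0217% to 0.0272% in replicate 4, without overlap, and their part in the member changes was not tested.

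Between replicates 5 and 1, 4 of 80 members were called higher, where 17.4% of all genes were, and 14 lower, where 14.9% were. The members were thus called higher less often than all genes, and lower about as often. Their median was -0.10. Only 2 of the 80 did not overlap, both lower, against 12% of all genes, again a smaller share. These counts do not set the members apart from all genes as changed between replicates 5 and 1. Rps29 (0.53), Rps28 (0.39), Rps27 (0.38) and Rpl5 (0.21) were higher, and Rps2 (-0.56), Rpl29 (-0.46), Rpl9 (-0.44), Rps3 (-0.34) and Rpl21 (-0.34) led the lower ones. Rps29 had 113, 87.6, 92.2 and 68.8 CPM in replicate 1, so the lowest replicate 5 library, at 101, lay within that range. The count of 18 became 10 in neurons only (7 higher, 3 lower), 9 without doublets (6 and 3) and 8 with total counts (3 and 5). It was 30 without OTV:Malat1 replicate 5 and 6 without nonTV:Malat1 replicate 1. It was 11 without ATV:BACE1 replicate 1, 11 without ATV:BACE1 replicate 5 and 8 without nonTV:Malat1 replicate 5. Cell classes moved with the replicate number: Neurons made up 60.8% to 66.7% of nuclei in replicate 1, 64.6% to 70.0% in replicate 4 and 71.7% to 80.9% in replicate 5. In replicate 5 against replicate 1, 5 of 5 astrocyte markers were called lower (median -0.51), and their summed level was 0.0141% to 0.0193% of UMIs in replicate 5 and 0.0239% to 0.0349% in replicate 1, without overlap. Microglial markers were called higher in 2 of 5 cases, with summed levels of 0.0116% to 0.0133% in replicate 5 and 0.00647% to 0.00925% in replicate 1, again without overlap. Markers called lower were 3 of 5 for Leptomeningeal cells, 3 of 5 for Oligodendrocytes, 3 of 4 for choroid plexus and 2 of 6 for Neurons, with overlapping summed levels. For pericyte and endothelial markers, 0 of 5 in each list were called, with medians of -0.57 and -0.35. Their part in the member changes was not tested.

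In the contrast of replicates 4 and 1, other cytoplasmic mRNAs were lower in 23 of 24 cases (median -0.60), TOP mRNAs in 12 of 17, mitochondrial ribosomal proteins in 55 of 78 with 2 higher, and mitochondrially encoded mRNAs in 7 of 13 with 1 higher. Ribosome biogenesis genes had 7 lower and 3 higher of 22 (median 0.02), small nucleolar RNA hosts 6 lower of 12, and nuclear RNAs 2 lower and 2 higher of 11. Over all genes, 16.5% were lower and 16.8% higher. Malat1 changed by -0.03 ± 0.12 (adjusted p 0.88, edgeR). Of the marker lists, 3 had summed levels that did not overlap between replicates 4 and 1: neuronal markers were at 0.405% to 0.440% of UMIs in replicate 4 and 0.374% to 0.393% in replicate 1 (1 of 6 called higher), oligodendrocyte markers at 0.0768% to 0.0852% and 0.0918% to 0.0992% (1 of 5 called lower), and microglial markers at 0.0108% to 0.0119% and 0.00647% to 0.00925% (2 of 5 higher and 1 lower). Their part in the member changes was not tested, and the share within the named classes is given above. The cytoplasmic list took up 0.482% ± 0.0833 of UMIs in replicate 1, 0.309% ± 0.0274 in replicate 4 and 0.414% ± 0.0569 in replicate 5 (n = 4, 3 and 4). The list of neuronal RNAs, which also holds the nuclear RNAs Meg3 and Snhg11, gave in oligodendrocyte nuclei 2.77 ± 0.191, 2.91 ± 0.693 and 2.80 ± 0.341 UMIs per nucleus in the same order, with overlapping libraries. The 5 choroid plexus RNAs took up 0.0815% ± 0.0213, 0.0629% ± 0.0120 and 0.0645% ± 0.0111 of UMIs, also overlapping, with 1 of 5 called lower in replicate 4 than in replicate 1 (median -0.26). Replicates 4 and 1 differ in sex, age and batch, replicates 5 and 4 in age and batch, and replicates 5 and 1 in sex and batch, and within each contrast these cannot be told apart.

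Between dosing groups, no ribosomal protein gene passed the test. The share was 0.502% ± 0.146 in ATV:BACE1, 0.534% ± 0.0946 in nonTV:Malat1, 0.544% ± 0.125 in OTV:Malat1 (n = 3 each) and 0.520% ± 0.0618 in Malat1 ASO (n = 2), and the groups overlap throughout. Within a replicate number, OTV:Malat1 differed from ATV:BACE1 by a log2 ratio of the shares of -0.24, 0.15 and 0.48 in replicates 1, 4 and 5. The nonTV:Malat1 ratios were -0.05, 0.29 and 0.11, and the Malat1 ASO ratios -0.47 and 0.25 in replicates 1 and 5. In the share, no group was on the same side of the control in all of its replicates. Counted per nucleus, nonTV:Malat1 lay above ATV:BACE1 in 3 of 3 replicates (log2 ratios 0.090, 0.44 and 0.11), OTV:Malat1 in 2 of 3 (-0.047, 0.47 and 0.15) and Malat1 ASO in 1 of 2 (-0.30 and 0.33). These per-nucleus ratios were not tested.

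In edgeR's quasi-likelihood test with Benjamini-Hochberg adjustment, 0 of 80 members passed in each of 5 contrasts, where the background was 0% of 21409 genes in each. At an unadjusted p under 0.05 in the same test there were also 0 members. Of all genes there were 161 (0.752%) for OTV:Malat1 and ATV:BACE1, 193 (0.901%) for nonTV:Malat1 and ATV:BACE1 and 375 (1.75%) for Malat1 ASO and ATV:BACE1. The others were 164 (0.766%) for OTV:Malat1 and nonTV:Malat1 and 133 (0.621%) for OTV:Malat1 and Malat1 ASO. With shares this small, 0 of 80 does not set the members apart from all genes. DESeq2 called 0 members, and 1, 0, 2, 1 and 2 genes in the same order. The median member changed by 0.08, 0.08, 0.07, -0.01 and 0.00, with a median standard error of 0.21 in the contrasts of the carrier-bound ASO groups with ATV:BACE1 and 0.23 in that of Malat1 ASO. The contrasts with ATV:BACE1 share the control libraries, so their member values are not independent.

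The members with the smallest unadjusted p for OTV:Malat1 against ATV:BACE1 were Rpl37 (0.26 ± 0.22), Rpl38 (0.27 ± 0.23) and Rps28 (0.27 ± 0.23), each with an adjusted p of 1.00 by edgeR. Rpl38 had 104, 67.6 and 86.8 CPM in ATV:BACE1 replicates 1, 4 and 5 and 91.3, 74.2 and 153 CPM in OTV:Malat1, with the highest value in OTV:Malat1 replicate 5. Without that library the change was -0.08. Rps29 showed the same library on top, at 185 CPM against 68.8 to 124 CPM in all others, and its change against nonTV:Malat1 went from 0.24 to -0.19 without it. The largest fitted member change of any dosing contrast was that of Rpl3l, 0.71 ± 0.33 for Malat1 ASO against ATV:BACE1, a gene of only 0.51 to 1.19 CPM in the 11 libraries.

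For comparison, the targeted RNA Malat1 differed by -0.79 ± 0.14 between OTV:Malat1 and ATV:BACE1 (unadjusted p 0.00012, adjusted p 1.00 by edgeR), by -0.01 ± 0.13 for nonTV:Malat1 and by 0.04 ± 0.15 for Malat1 ASO. No gene reached the threshold in these fits without a replicate term. With the replicate number as a block, 0 members passed in each contrast (1 had an unadjusted p under 0.05 in each contrast that involved Malat1 ASO). Over all genes the block gave 4 calls for Malat1 ASO and ATV:BACE1 and 0 in each of the other contrasts. The member medians against ATV:BACE1 were 0.08 (OTV:Malat1), 0.09 (nonTV:Malat1) and -0.05 (Malat1 ASO), the last with the opposite sign from the unblocked value of 0.07.

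Class by class, 625 member tests in 8 classes for each contrast with ATV:BACE1, and 689 in 9 classes for each of the other two contrasts, gave 0 calls in edgeR's quasi-likelihood test. The background over the same classes was 0.00513% of tests between OTV:Malat1 and ATV:BACE1, 0% in the other contrasts with ATV:BACE1, 0.00252% between OTV:Malat1 and nonTV:Malat1 and 0.00378% between OTV:Malat1 and Malat1 ASO. At an unadjusted p under 0.05 there were 11, 5, 3, 13 and 5 member tests in the order of the contrasts (1.76%, 0.8%, 0.48%, 1.89% and 0.726%), against 2.27%, 2.05%, 2.61%, 1.74% and 1.95% of all class tests, and DESeq2 called 0 members in these classes too. With the replicate number as a block, there were still 0 calls of members, but 21, 12, 17, 32 and 33 member tests had an unadjusted p under 0.05 (3.36%, 1.92%, 2.72%, 4.64% and 4.79%), against 4.49%, 4.44%, 7.02%, 3.78% and 4.31% of all class tests, and 10, 20, 38, 19 and 14 tests of any gene were called.

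**Figure D5:**
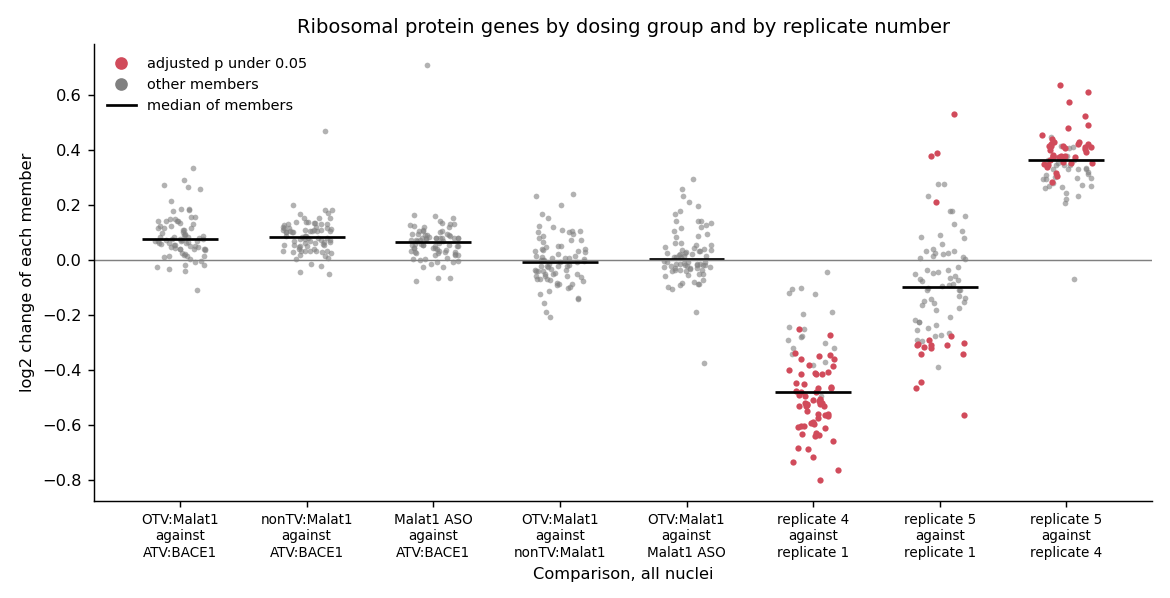
Log2 change of each of 80 ribosomal protein genes (y) in the 5 contrasts of dosing groups and the 3 contrasts of replicate numbers (x), over all nuclei; red points have an adjusted p under 0.05 in edgeR and bars are medians. No point is red between dosing groups, while 61 members are lower in replicate 4 than in replicate 1.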

How the data were processed

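Nuclear RNA of 11 libraries had been captured in droplets. Per the submitters' processing notes, Cell Ranger 5.0.0, Seurat 4 and the mm10 build were used, with no role or order stated. The deposited matrix holds raw UMI counts per gene symbol and nucleus, and per the file headers the deposited metadata give a class name, a prediction score as a fraction, a doublet call and a percent of UMIs on symbols starting with Mt. Counts were summed per library, and per library and class where at least 20 nuclei were present. Sums were tested with edgeR 4.0.16 (quasi-likelihood, TMM, filterByExpr, Benjamini-Hochberg threshold 0.05) on R 4.3.3, with DESeq2 1.42.0 as the alternative, and the scripts were tested on simulated data. Standard errors are the log2 change divided by the square root of F. Each library holds 33235994 to 43972886 UMIs, so counting error on the ribosomal protein share is small (0.369% to 0.373%, a 95% Wilson interval that covers counting error only, in the library with the lowest share). Within each group, the labels give replicates of different sex or age, so libraries of a group came from different mice. In the dosing and replicate contrasts, p-values measure the spread between libraries. In the class contrasts the library block takes that spread out. Their p-values rest on the spread that remains between library-by-class sums, pooled over classes. Class contrasts have the library as a block, replicate contrasts the dosing group as a term, and dosing contrasts no block. Same-numbered libraries share a deposited batch and deviated together: log2 CPM centred within groups over 14658 genes correlated at r 0.542 to 0.849 in 15 pairs of the same number and at -0.79 to 0.409 in 30 pairs of different numbers, a centring that ties these values to each other. Alternatives were other scaling, filters, tools and depth windows, doublets left out, Malat1 left out of the counts, prediction scores of at least 0.9, neurons only, and each library left out in turn. Named genes were the 10 with the most UMIs, the stalk genes, the paralogs with their parents, up to 5 called members per direction with the largest change, or the 3 with the smallest p where none was called; Rpl22, Rps27, Rps9, Rpl15 and Rpl36 in windows of depth, Rps12, Rpl23 and Ncl were named after their values were seen. Some genes that these rules select are not reported here. The members and gene lists were chosen with earlier results of these data known.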

Additional observations from a re-analysis of the deposited data

How the results depend on the processing

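The count of members called between dosing groups was 0 under every alternative run, the replicate block, both tools and each left-out library included (176 alternative values). The main fits over all nuclei called no gene at all, not even the targeted Malat1. An unchanged 0 therefore does not show that the members were unaffected. Among the 3 members per contrast with the smallest p, 260 values kept their sign and 10 did not. With single libraries left out, the OTV:Malat1 changes against ATV:BACE1 ran from -0.015 to 0.45 (Rpl37), -0.079 to 0.46 (Rpl38) and -0.045 to 0.42 (Rps28), those against nonTV:Malat1 from -0.11 to 0.43 (Rpl38), -0.19 to 0.43 (Rps29) and -0.12 to 0.34 (Rps28), and those against Malat1 ASO from -0.087 to 0.52 (Rpl38) and -0.13 to 0.72 (Rps29), each lowest without OTV:Malat1 replicate 5. Rps29 against Malat1 ASO was also -0.031 without Malat1 ASO replicate 1, and Rpl23a for Malat1 ASO against ATV:BACE1 ran from -0.050 (without Malat1 ASO replicate 5) to 0.31. In the same runs the log2 ratio of mean shares to ATV:BACE1 ran from -0.06 to 0.36 (OTV:Malat1), from -0.09 to 0.34 (nonTV:Malat1) and from -0.13 to 0.30 (Malat1 ASO).

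Members called between replicates 4 and 1 stayed between 44 and 66 with a library left out. Between replicates 5 and 1 the count of 18 became 10 in neurons only, 9 without doublets, 8 with total counts, and 6 to 30 with a library left out. Between replicates 5 and 4 the count of 40 became 66, 61 and 67 under the same 3 settings, 26 without nuclei under 1000 UMIs, and 0 to 71 with a library left out. The causes were not tested.

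Class counts moved with depth: in nuclei of 1000 to 2000 UMIs to 13 in Glia, 44 in Leptomeningeal cells and 2 in Microglia, and in nuclei above 2000 and up to 3000 UMIs, added after seeing the data, to 19 in Glia, 9 in Leptomeningeal cells and 10 in Oligodendrocytes. The other 118 alternative counts stayed within 1.5 times, and with a library left out the counts were 73 to 79. Shares moved by more than their spread for Neurons (0.940% in nuclei of 1000 to 2000 UMIs, 0.546% as the mean of single nuclei), Glia (1.33% and 1.02% in the same order), and, without nuclei under 1000 UMIs, Microglia (1.03%) and Oligodendrocytes (1.01%). Depth limits Rpl3l and Rpl39l.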

Other observations

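The deposited percent of mitochondrial UMIs equals, in 110304 of 110304 nuclei (to a tolerance of 1e-06), the share of UMIs on the 71 symbols that start with Mt, such as metallothioneins and nuclear genes of that spelling, and not the share on the mitochondrially encoded genes, whose symbols start with mt-. It equals the latter in 3323 nuclei. The mean of the deposited column was 0.295% per nucleus, against 0.0406% for the mitochondrially encoded genes, which took up 0.0254% of all UMIs. In library means, mitochondrially encoded genes gave 0.458 to 1.82 UMIs per nucleus, against 13.2 to 25.5 for the ribosomal protein genes.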
